A study of Mus musculus with 6 samples.

Results

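Genes that carry cells through mitosis were followed in RNA sequencing of mouse bone marrow with and without GAB2, a scaffolding adaptor that links cytokine receptors and the BCR-ABL1 oncoprotein to downstream kinases and phosphatases. The set comprised 51 genes, taken by symbol, for mitotic cyclins and kinases, the spindle checkpoint, centromere and kinetochore, mitotic kinesins, spindle midzone, cytokinesis and condensin, and all 51 were found among 23359 gene symbols. The 3 Gab2 -/- libraries are called NULL A, B and C, the 3 Gab2 +/+ libraries are called WT A, B and C, and all come from bone marrow. The series is concerned with transformation of myeloid and lymphoid cells by BCR-ABL1. The labels give no strain, age, sex, culture or treatment for either group and name no animals, and the spread that p-values rest on is therefore one between samples and could be technical.

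Entry into mitosis is driven by CDK1 bound to cyclin A or cyclin B, which CDC25 phosphatases activate and polo and aurora kinases reinforce. Condensin compacts the chromosomes, kinesins build the spindle, and kinetochores attach each chromosome to it while the checkpoint proteins of the BUB and MAD families hold back the anaphase-promoting complex (APC/C). Once every kinetochore is attached, CDC20 activates the APC/C, securin and cyclin B are degraded, separase opens cohesin, and the centralspindlin and anillin proteins direct the cleavage of the cell. Transcripts of these genes are periodic, low in resting cells and highest late in the cell cycle, under FOXM1, B-MYB and the MuvB complex, so that their level in a tissue moves with the share of dividing cells. In bone marrow the large early B-cell and myeloid precursors divide rapidly.

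Values are FPKM, fragment numbers scaled to transcript length and library size. They were compared by limma on log2(FPKM + 1) over the 9916 genes averaging 1 FPKM or more, with an adjusted p of 0.05 as threshold. Log2 changes are NULL minus WT on that scale, where a change at a low level comes out smaller than it is. The libraries held roughly 17400000 to 67400000 fragments by the step between low values, with NULL A the deepest and WT B the shallowest. Gab2 measured 0.123 to 0.203 FPKM in NULL and 2.43 to 3.33 FPKM in WT. The label bone marrow was checked against marker lists. The libraries held much RNA of B-lineage markers and almost none of neutrophil, T-cell or megakaryocyte markers. Whether cells were sorted or cultured is not in the labels. All 12 B-lineage markers passed 1 FPKM on average, with summed levels of 4022 to 4243 FPKM in NULL and 2501 to 2766 FPKM in WT, so the B-lineage markers were higher in NULL, and their part in the results was not tested. All 9 neutrophil markers stayed below 1 FPKM in every library (sums of 0.0706 to 0.210 FPKM in NULL and 0.0455 to 0.226 FPKM in WT), and Mpo, Elane, S100a8 and S100a9 lay below 0.05 FPKM throughout. Markers of T and NK cells (6 of 6), megakaryocytes (5 of 5), monocytes and macrophages (5 of 6), mast cells and basophils (3 of 4), erythroid cells (5 of 7) and stroma and endothelium (5 of 6) were also below 1 FPKM in every library. Summed erythroid markers were 159 to 184 FPKM in NULL and 276 to 359.6 FPKM in WT. Of this the transferrin receptor Tfrc made up 159 to 184 FPKM in NULL and 261 to 351 FPKM in WT. Hbb-b1, a beta-globin gene, lay below 0.05 FPKM in every NULL library and measured 8.31, 7.21 and 58.7 FPKM for WT A, B and C, while Hba-a1 and Slc4a1 lay below 0.05 FPKM throughout. Summed monocyte and macrophage markers were 3.02 to 4.0 FPKM in NULL and 0.352 to 0.898 FPKM in WT, with Lyz2 at 2.31 to 3.58 FPKM in NULL and 0.248 to 0.554 FPKM in WT. The part of either list in the results was not tested.

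Mitotic genes were lower in the NULL libraries almost throughout. Of the 51 members, 49 fell, Cdc25b rose and Pttg1 was not called. Across all genes tested, 42.0% were called lower, 23.3% higher and 65.3% in either direction, and among the 4935 genes averaging 10 FPKM or more, 55.9% were called lower and 72.6% in either direction. All 51 members passed the expression filter, and 47 of them averaged 10 FPKM or more. The median log2 change of the 51 was -0.93, where the median of all genes tested was -0.13, and the median member stood at 51.3% of its WT mean in NULL. In 48 members the log2 change was -0.50 or below together with a call, which held for 24.8% of all genes, and in 21 it was -1.0 or below, which held for 5.99% of all genes. The NULL and WT values did not overlap in 50 members, 49 of them lower in NULL, where 45.1% of all genes were lower without overlap and 71.0% did not overlap in either direction. An exact permutation test of a single gene cannot go below p = 0.1 with 3 libraries against 3, and that value was reached by each of the 50. In bulk RNA, fewer dividing cells and less of these transcripts per dividing cell cannot be told apart.

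**Figure D1:**
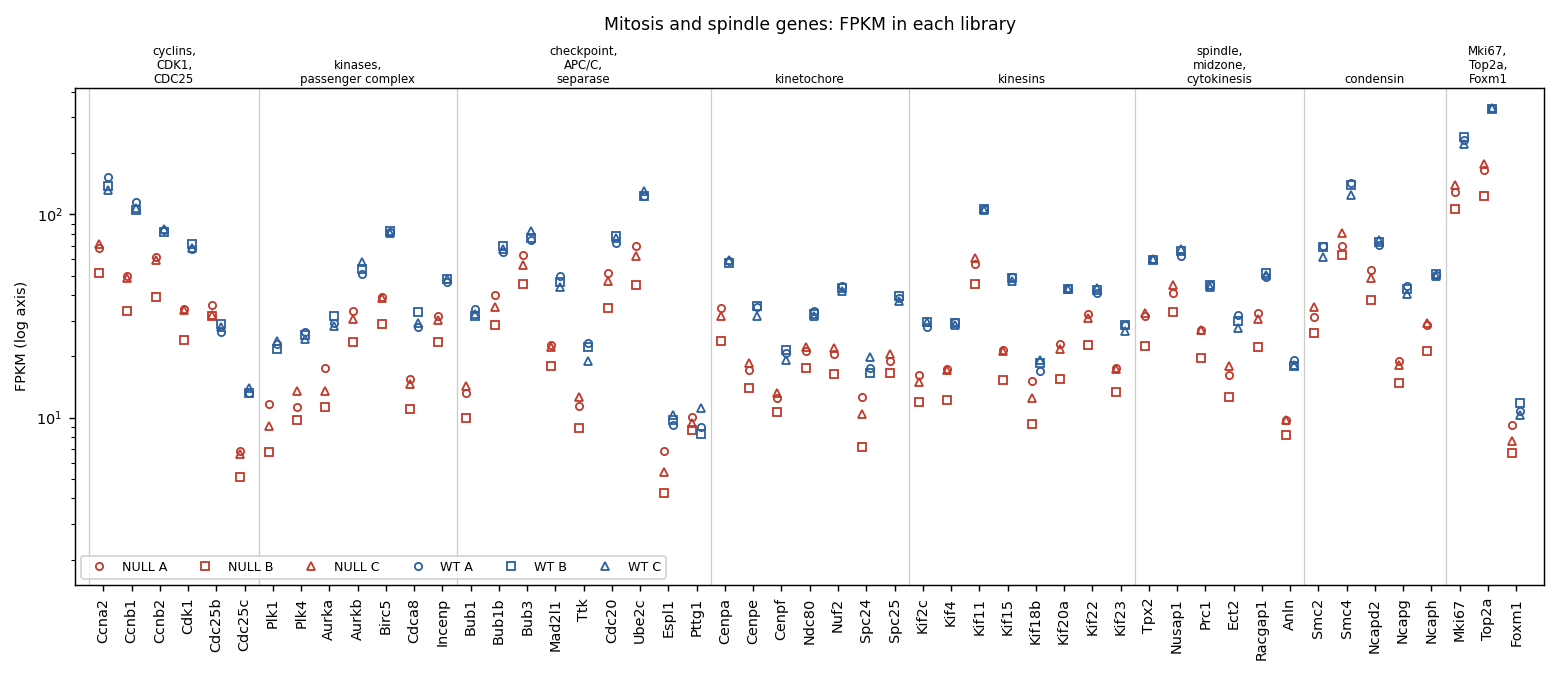
FPKM of each of the 51 members on a log axis, with NULL A, B and C in red to the left of WT A, B and C in blue, ordered by role. In 49 members all 3 NULL points lie below all 3 WT points, Cdc25b lies the other way and Pttg1 overlaps.

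The members' promoters were read for the sequence elements known from late cell cycle genes. These are the CHR (cell cycle genes homology region), to which MuvB complexes bind, and the CCAAT box, to which NF-Y binds. Of the 51 members, 42 matched an entry of RefSeq promoters on GRCm38.p6, which run from 250 bases before to 50 bases after the start. The CHR letters TTTGAA or TTCGAA, on either strand, stood in 33 of the 42 (78.6%), against 16.7% of the 7408 tested genes with an entry and 19.2% of all 32851 promoters. The letters CCAAT, on either strand, stood in 31 of 42 (73.8%), against 44.4% of tested genes and 37.4% of all promoters. Both elements stood together in 29 (69.05%), against 7.21% and 7.53%. A gene counted if any of its entries matched, while the shares of all promoters count single entries. By gene, the shares over all 27025 genes with an entry were 21.7% for CHR, 41.1% for CCAAT and 8.61% for both. With only the 250 bases before the start, CHR letters were found in 18 of 42 members (42.9%), against 14.8% of tested genes. The rest of the 33 carry theirs just after the start, and 9 members have none in either stretch. E2F letters (TTTCCCGC, TTTGGCGC, TTTCGCGC or TTTGCCGC) were in 4 of 42 members (9.52%) and 5.28% of tested genes. No string searched contains another, on either strand.

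The 120 bases before the start of 6 members are printed to show how these elements are arranged in genes that fell by much (Top2a, Mad2l1), by the usual amount (Kif11, Mki67), by little (Ccnb2) and in the gene that rose (Cdc25b). Each runs 5′ to 3′ along the gene's strand on GRCm38.p6, with matches to CHR or CCAAT letters in capitals (ATTGG is CCAAT, and TTCAAA is TTTGAA, on the other strand).
Top2a (chr11:99024190-99024309, minus strand): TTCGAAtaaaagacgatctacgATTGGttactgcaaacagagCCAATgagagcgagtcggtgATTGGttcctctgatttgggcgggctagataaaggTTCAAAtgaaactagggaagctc
Kif11 (chr19:37376262-37376381, plus strand): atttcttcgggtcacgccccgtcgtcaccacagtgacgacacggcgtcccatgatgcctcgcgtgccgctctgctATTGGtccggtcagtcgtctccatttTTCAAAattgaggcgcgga
Mki67 (chr7:135716380-135716499, minus strand): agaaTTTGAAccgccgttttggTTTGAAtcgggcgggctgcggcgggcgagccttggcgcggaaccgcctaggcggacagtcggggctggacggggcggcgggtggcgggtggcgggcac
Ccnb2 (chr9:70421555-70421674, minus strand): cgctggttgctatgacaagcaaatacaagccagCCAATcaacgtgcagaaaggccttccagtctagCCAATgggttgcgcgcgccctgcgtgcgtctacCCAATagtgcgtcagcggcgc
Mad2l1 (chr6:66535101-66535220, plus strand): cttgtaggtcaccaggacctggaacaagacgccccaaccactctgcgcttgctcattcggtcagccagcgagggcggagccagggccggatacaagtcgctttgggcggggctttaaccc
Cdc25b (chr2:131186828-131186947, plus strand): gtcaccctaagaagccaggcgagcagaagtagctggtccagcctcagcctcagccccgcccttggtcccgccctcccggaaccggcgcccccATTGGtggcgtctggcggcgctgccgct
Top2a and Kif11 have CCAAT letters upstream and CHR letters close to the start, Mki67 has a pair of CHR matches at the far end of the window, and Ccnb2 has 3 CCAAT boxes whose first letters lie 33 bases apart, with CHR letters after its start at positions 5 to 10. Mad2l1 has neither element in this window, and Cdc25b has CCAAT letters at -28 and CHR letters (TTCGAA) at 8 to 13 after the start. The Mad2l1 window ends at 66535220, while the GENCODE vM21 annotation starts the gene at 66535390. The bases just before that annotated start were therefore not searched.

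The members' changes were set beside these elements. Members with both had a median log2 change of -0.91 (29 genes) and members without the pair -1.0 (13 genes). Bub1, which fell the most, and Cdc25b, which rose, both have the pair, and Pttg1 has neither element. Outside the members, the 505 tested genes with both elements had a median log2 change of -0.21, with 48.3% called lower. The 6861 without had -0.12, with 41.6% called lower. For E2F letters, the members' median was -1.21 with them (4 genes) and -0.92 without (38 genes). Among tested genes outside the members, the 387 with E2F letters had a median of -0.32, with 54.5% called lower. The 6979 without E2F letters had -0.12, with 41.35% called lower. The part of any element in the changes was not tested.

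Of the 6 genes for cyclins, CDK1 and CDC25 phosphatases, 5 fell and 1 rose. Ccna2, cyclin A2, measured 68.5, 51.4 and 71.5 FPKM in NULL A, B and C, against 152, 138 and 132 FPKM for WT A, B and C (log2 change -1.14, SE 0.129, limma adjusted p = 0.000178). Ccnb1, cyclin B1, the main partner of CDK1 in mitosis, measured 49.9, 33.3 and 48.9 FPKM in NULL A, B and C, against 115, 106 and 107 FPKM for WT A, B and C (log2 change -1.31, SE 0.149, limma adjusted p = 0.000179), a mean of 40.4% of WT. Its relative Ccnb2, cyclin B2, measured 61.4, 38.99 and 59.5 FPKM in NULL A, B and C, against 83.6, 81.5 and 84.4 FPKM for WT A, B and C, which is 64.1% of WT (log2 change -0.66, SE 0.161, limma adjusted p = 0.00796). All 3 cyclins were lower in every NULL library than in any WT library, and cyclin B2 by the least. The kinase gene Cdk1 averaged 30.8 ± 5.90 FPKM in NULL and 69.1 ± 2.41 FPKM in WT (SD, n = 3 each), a log2 change of -1.16. Cdc25c, a phosphatase that activates CDK1 at mitotic entry, averaged 6.21 ± 0.953 FPKM in NULL and 13.4 ± 0.434 FPKM in WT, a log2 change of -1.01. Cdc25b, the related phosphatase that starts CDK1 activation at the centrosome, measured 35.6, 31.5 and 31.97 FPKM in NULL A, B and C, against 26.3, 28.8 and 27.9 FPKM for WT A, B and C (log2 change 0.25, SE 0.0722, limma adjusted p = 0.0181). Each NULL library was above each WT library, by 1.19 times on average, but the call of Cdc25b was lost without WT A (limma adjusted p = 0.0698), and its lowest WT value is that of WT A.

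All 7 genes for polo and aurora kinases and the chromosomal passenger complex fell. Plk1, the polo kinase of mitotic entry and spindle assembly, measured 11.7, 6.75 and 9.10 FPKM in NULL A, B and C, against 22.9, 21.8 and 23.8 FPKM for WT A, B and C (log2 change -1.25, SE 0.162, limma adjusted p = 0.000327). Plk4, which starts centriole duplication, averaged 11.5 ± 1.89 FPKM in NULL and 25.4 ± 1.03 FPKM in WT (log2 change -1.09). Aurora A, from Aurka, acts at spindle poles and averaged 14.1 ± 3.18 FPKM in NULL and 29.6 ± 1.78 FPKM in WT (log2 change -1.03). Plk1 was thus the lowest of this group relative to WT, at 40.2%. Aurkb, the kinase of the passenger complex that corrects wrong attachments, measured 33.3, 23.7 and 30.5 FPKM in NULL A, B and C, against 51.1, 53.6 and 58.3 FPKM for WT A, B and C (log2 change -0.89, SE 0.124, limma adjusted p = 0.000480). Birc5, survivin, had the highest levels of the group with 39.2, 28.8 and 38.9 FPKM in NULL A, B and C, against 82.3, 83.1 and 80.5 FPKM for WT A, B and C (log2 change -1.19, SE 0.118, limma adjusted p = 9.85e-05). Incenp, the scaffold of the complex, measured 31.6, 23.6 and 30.3 FPKM in NULL A, B and C, against 46.4, 48.3 and 47.98 FPKM for WT A, B and C (log2 change -0.73, SE 0.108, limma adjusted p = 0.000658), and Cdca8, borealin, averaged 13.7 ± 2.33 FPKM in NULL and 30.04 ± 2.65 FPKM in WT (log2 change -1.09). The means of the passenger complex subunits stood at these shares of WT, 43.5% for survivin, 45.6% for borealin, 53.6% for aurora B and 59.9% for the scaffold.

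Among the 9 genes of the checkpoint, the APC/C activator, its ubiquitin-conjugating enzyme, separase and securin, 8 fell and 1 was not called. Bub1, a checkpoint kinase at kinetochores, had the most negative change of all members, with 13.3, 9.91 and 14.4 FPKM in NULL A, B and C, against 34.4, 31.5 and 32.3 FPKM for WT A, B and C (log2 change -1.33, SE 0.125, limma adjusted p = 7.97e-05). Bub3, which carries BUB1 and BUBR1 to the kinetochore, measured 63.2, 45.5 and 56.04 FPKM in NULL A, B and C, against 74.7, 76.1 and 82.8 FPKM for WT A, B and C (log2 change -0.51, SE 0.119, limma adjusted p = 0.00636). Bub1b, the gene of BUBR1, averaged 34.5 ± 5.66 FPKM in NULL and 67.3 ± 2.29 FPKM in WT, Mad2l1, the MAD2 inhibitor of CDC20, 21.01 ± 2.64 FPKM in NULL and 46.6 ± 2.81 FPKM in WT, and the checkpoint kinase Ttk 10.98 ± 1.89 FPKM in NULL and 21.5 ± 2.22 FPKM in WT (SD, n = 3 each), with log2 changes of -0.96, -1.12 and -0.91. Bub3 was thus the checkpoint gene that fell by the least, to 70.5% of WT, against 38.3% for Bub1. Cdc20, the APC/C activator, measured 51.4, 34.6 and 47.0 FPKM in NULL A, B and C, against 72.3, 77.9 and 76.9 FPKM for WT A, B and C (log2 change -0.78, SE 0.137, limma adjusted p = 0.00162). Ube2c, the ubiquitin-conjugating enzyme of the APC/C, had 69.8, 45.1 and 62.6 FPKM in NULL A, B and C, against 123, 123 and 129.9 FPKM for WT A, B and C (log2 change -1.09, SE 0.149, limma adjusted p = 0.000429), the highest means of the group in NULL and in WT.

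Separase was called lower, and its inhibitor securin was not called. Espl1, separase, measured 6.85, 4.27 and 5.40 FPKM in NULL A, B and C, against 9.17, 9.73 and 10.3 FPKM for WT A, B and C (log2 change -0.74, SE 0.138, limma adjusted p = 0.00208). Pttg1, securin, measured 10.1, 8.66 and 9.40 FPKM in NULL A, B and C, against 8.98, 8.32 and 11.1 FPKM for WT A, B and C (log2 change -0.01, SE 0.108, limma adjusted p = 0.963), so the groups overlapped, with WT C above and WT B below every NULL library. Pttg1 has a log2 change of 0.34 and was called higher once libraries were brought to an equal sum of FPKM leaving out small RNA genes (limma adjusted p = 0.00834). The missing call does not show that its level was equal in the groups.

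All 7 centromere and kinetochore genes fell. Cenpa, the histone variant of centromeres, had the highest levels, with 34.5, 23.7 and 31.5 FPKM in NULL A, B and C, against 58.9, 57.7 and 59.3 FPKM for WT A, B and C (log2 change -0.96, SE 0.127, limma adjusted p = 0.000369). Within the NDC80 complex, which binds spindle microtubules, Nuf2 measured 20.6, 16.4 and 21.96 FPKM in NULL A, B and C, against 44.5, 43.2 and 41.8 FPKM for WT A, B and C (log2 change -1.11, SE 0.106, limma adjusted p = 8.48e-05), and its dimer partner Ndc80 21.2, 17.5 and 22.3 FPKM in NULL A, B and C, against 33.6, 32.3 and 31.7 FPKM for WT A, B and C (log2 change -0.66, SE 0.0931, limma adjusted p = 0.000515). Nuf2 had more FPKM than Ndc80 in every WT library and fewer in every NULL library. The inner dimer of the complex, Spc24 and Spc25, also fell. Spc24 measured 12.7, 7.13 and 10.4 FPKM in NULL A, B and C, against 17.6, 16.6 and 19.9 FPKM for WT A, B and C (log2 change -0.81, SE 0.177, limma adjusted p = 0.00457), with NULL B well below NULL A, and Spc25 averaged 18.7 ± 2.03 FPKM in NULL and 38.6 ± 0.962 FPKM in WT (log2 change -1.01). Cenpe, a kinetochore motor, averaged 16.6 ± 2.31 FPKM in NULL and 34.1 ± 2.10 FPKM in WT (log2 change -1.0), and Cenpf, a large kinetochore protein, measured 12.5, 10.7 and 13.2 FPKM in the NULL libraries and 20.8, 21.5 and 19.1 FPKM in the WT libraries (log2 change -0.71, SE 0.0888, limma adjusted p = 0.000276).

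All 8 mitotic kinesins fell, over a range from -1.29 to -0.55. Kif11, the motor that pushes spindle poles apart, was the most abundant, with 56.8, 45.6 and 61.3 FPKM in NULL A, B and C, against 107, 106 and 105 FPKM for WT A, B and C (log2 change -0.95, SE 0.108, limma adjusted p = 0.000176). Kif15, which can share that task, measured 21.4, 15.3 and 21.4 FPKM in NULL A, B and C, against 49.1, 48.4 and 46.9 FPKM for WT A, B and C (log2 change -1.29, SE 0.125, limma adjusted p = 9.12e-05), and so stood at 40.2% of WT where Kif11 stood at 51.6%. The chromokinesin Kif22 measured 32.5, 22.8 and 30.8 FPKM in NULL A, B and C, against 40.8, 42.6 and 43.5 FPKM for WT A, B and C (log2 change -0.56, SE 0.125, limma adjusted p = 0.00526). Kif18b, a depolymerase of astral microtubules, measured 15.1, 9.30 and 12.5 FPKM in NULL A, B and C, against 17.02, 18.5 and 19.1 FPKM for WT A, B and C (log2 change -0.55, SE 0.151, limma adjusted p = 0.0135). Both were lower in every NULL library than in any WT library, but NULL A came within a few FPKM of WT A for Kif18b. The chromokinesin Kif4 measured 17.3, 12.2 and 17.1 FPKM in the NULL libraries and 29.6, 29.1 and 28.7 FPKM in the WT libraries (log2 change -0.88, SE 0.124, limma adjusted p = 0.000502). Kif23, the motor of centralspindlin, measured 17.5, 13.4 and 17.3 FPKM in the NULL libraries and 28.6, 28.5 and 26.8 FPKM in the WT libraries (log2 change -0.77, SE 0.105, limma adjusted p = 0.000428). The depolymerase Kif2c and the midzone motor Kif20a had log2 changes of -0.97 and -1.09, with averages of 14.4 ± 2.21 FPKM in NULL and 28.98 ± 1.05 FPKM in WT for Kif2c and 20.04 ± 3.95 FPKM in NULL and 43.2 ± 0.268 FPKM in WT for Kif20a.

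The 6 genes for spindle assembly, the midzone and cytokinesis fell within a narrow range, from -1.05 to -0.72. Tpx2, which activates aurora A on the spindle, measured 31.5, 22.5 and 32.7 FPKM in NULL A, B and C, against 60.2, 59.7 and 60.5 FPKM for WT A, B and C (log2 change -1.05, SE 0.133, limma adjusted p = 0.000300). Nusap1, a microtubule-bundling protein, measured 40.9, 33.04 and 44.8 FPKM in NULL A, B and C, against 62.5, 66.3 and 67.4 FPKM for WT A, B and C (log2 change -0.72, SE 0.110, limma adjusted p = 0.000755). Prc1, which crosslinks the midzone, measured 27.03, 19.7 and 26.9 FPKM in the NULL libraries and 44.9, 44.9 and 43.96 FPKM in the WT libraries, and Racgap1, the GTPase-activating part of centralspindlin, 32.8, 22.1 and 30.7 FPKM in the NULL libraries and 49.2, 51.5 and 50.5 FPKM in the WT libraries, with log2 changes of -0.85 and -0.82 (limma adjusted p = 0.000489 and 0.00115). In all 4 genes the 3 WT values lay close together and NULL B was the lowest library. Ect2, the RhoA exchange factor of the cleavage furrow, averaged 15.6 ± 2.65 FPKM in NULL and 29.8 ± 2.11 FPKM in WT (log2 change -0.91), and Anln, anillin, 9.23 ± 0.869 FPKM in NULL and 18.5 ± 0.685 FPKM in WT (log2 change -0.93).

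All 5 condensin genes fell. The shared ATPase Smc4 was the most abundant, with 69.9, 62.98 and 80.7 FPKM in NULL A, B and C, against 142, 139 and 124 FPKM for WT A, B and C (log2 change -0.92, SE 0.104, limma adjusted p = 0.000179), and its partner Smc2 averaged 30.7 ± 4.34 FPKM in NULL and 66.8 ± 4.31 FPKM in WT (log2 change -1.10). The condensin I subunit Ncapg measured 18.9, 14.8 and 18.1 FPKM in NULL A, B and C, against 44.4, 42.98 and 40.7 FPKM for WT A, B and C (log2 change -1.26, SE 0.0957, limma adjusted p = 3.83e-05). Ncapd2 of the same complex measured 53.3, 37.7 and 48.5 FPKM in NULL A, B and C, against 70.3, 73.04 and 74.6 FPKM for WT A, B and C (log2 change -0.65, SE 0.121, limma adjusted p = 0.00218), and Ncaph, the kleisin, 28.6, 21.3 and 29.4 FPKM in NULL A, B and C, against 50.4, 50.8 and 49.8 FPKM for WT A, B and C (log2 change -0.92, SE 0.117, limma adjusted p = 0.000312). The 3 regulatory subunits of condensin I thus stood at 40.5%, 64.01% and 52.5% of WT for Ncapg, Ncapd2 and Ncaph.

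The proliferation markers Mki67 and Top2a had the highest levels of all members. Top2a, the topoisomerase that untangles sister chromatids, measured 164, 124 and 176 FPKM in NULL A, B and C, against 334, 329 and 333 FPKM for WT A, B and C (log2 change -1.11, SE 0.131, limma adjusted p = 0.000209). Mki67, the Ki-67 protein that coats mitotic chromosomes, measured 129, 106 and 139 FPKM in NULL A, B and C, against 231, 240.3 and 221 FPKM for WT A, B and C (log2 change -0.89, SE 0.108, limma adjusted p = 0.000246). Neither overlapped between NULL and WT, and the WT values of Top2a lay closer together than those of Mki67. Foxm1, a transcription factor that activates mitotic genes, was among the weakly expressed members and measured 9.16, 6.70 and 7.71 FPKM in NULL A, B and C, against 10.8, 11.8 and 10.3 FPKM for WT A, B and C (log2 change -0.44, SE 0.108, limma adjusted p = 0.00808). At 71.6% of WT it fell by less than every other called member that was lower. Foxm1 shares exon sequence with Tex52 and Gm44596 on the same strand, where strand cannot tell the reads apart. A further 11 members share some with a gene on the opposite strand. Their reads could be split if strand was not used in counting, and whether it was used is not stated.

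**Figure D2:**
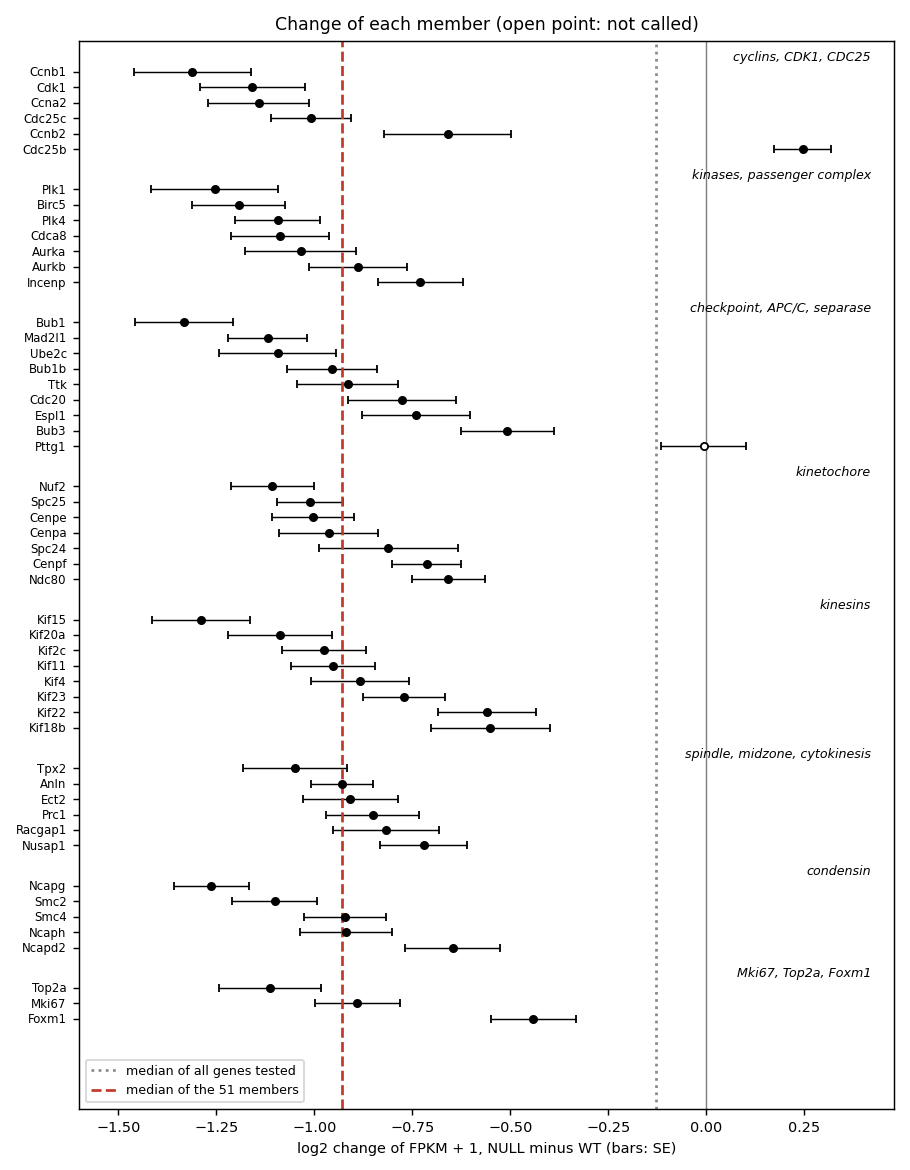
Log2 change of FPKM + 1 (NULL minus WT) of each member with its standard error, grouped by role and sorted within each role. Points run from -1.33 (Bub1) to 0.25 (Cdc25b), the dashed line is the members' median (-0.93), the dotted line the median of all genes tested (-0.13), and the open point, Pttg1, was not called.

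For the members, the NULL libraries lay farther apart than the WT libraries. NULL B was the lowest of all 6 libraries in 49 of 51 members and the lowest of the 3 NULL libraries in all 51, which held for 34.3% and 47.5% of all genes tested. Relative to the WT mean, the members' median log2 level was -0.83, -1.19 and -0.81 in NULL A, B and C, and 0.0060, 0.0083 and -0.016 in WT A, B and C. The same medians over all genes tested were -0.12, -0.16 and -0.12 in NULL A, B and C. The median member had an SD of 0.24 on the log2 scale among NULL libraries and 0.056 among WT libraries, where the median gene had 0.096 and 0.093. The members thus varied more than the median gene in NULL and less in WT. NULL B is the shallowest of the NULL libraries, at roughly 23000000 fragments, against 67400000 in NULL A and 38700000 in NULL C, and the part of depth in its low values was not tested. Without NULL B the 49 members were still called lower and Cdc25b higher, with a median log2 change of -0.83.

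**Figure D3:**
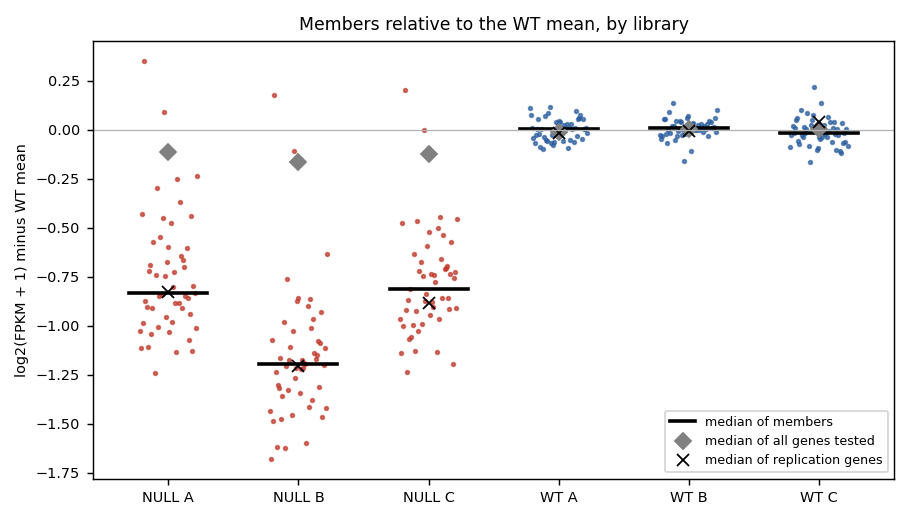
Log2(FPKM + 1) of each member minus its WT mean, by library (NULL red, WT blue), with the median of the members (bar), of the replication genes (cross) and of all genes tested (grey diamond). The members' medians are -0.83, -1.19 and -0.81 in NULL A, B and C and lie within 0.016 of 0 in WT.

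The proportions of related members were compared as 18 ratios of FPKM. The pairs were chosen after the values were seen. The ratio of Ccnb1 to Ccnb2 was 0.813, 0.855 and 0.821 in NULL A, B and C, against 1.37, 1.30 and 1.27 in WT A, B and C. The ratio of Bub1 to Bub3 was 0.210, 0.218 and 0.257 in NULL A, B and C, against 0.460, 0.413 and 0.390 in WT A, B and C. For Cdc25b to Cdc25c it was 5.18, 6.15 and 4.82 in NULL A, B and C, against 2.0, 2.18 and 2.0 in WT A, B and C. These 3 ratios did not overlap between the groups, and the last was higher in NULL. The ratio of Ndc80 to Nuf2 was 1.03, 1.07 and 1.02 in NULL A, B and C, against 0.756, 0.747 and 0.757 in WT A, B and C. For Ncapg to Ncapd2 it was 0.356, 0.393 and 0.372 in NULL A, B and C, against 0.631, 0.588 and 0.546 in WT A, B and C. The ratio of separase to securin (Espl1 to Pttg1) was 0.679, 0.493 and 0.574 in NULL A, B and C, against 1.02, 1.17 and 0.927 in WT A, B and C. These also did not overlap, and only Ndc80 to Nuf2 was higher in NULL among the 3. Dividing a library by 1 factor leaves such a ratio as it is, which quantile normalization does not. The groups overlapped for Plk1 to Plk4, Aurka to Aurkb and Spc25 to Spc24, with exact two-sided permutation p-values of 0.4, 0.2 and 0.6. In the same exact permutation test the other 15 ratios reached p = 0.1, the smallest that 3 libraries against 3 allow, or 0.12 after Benjamini-Hochberg adjustment over the 18, so none could be called.

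**Figure D4:**
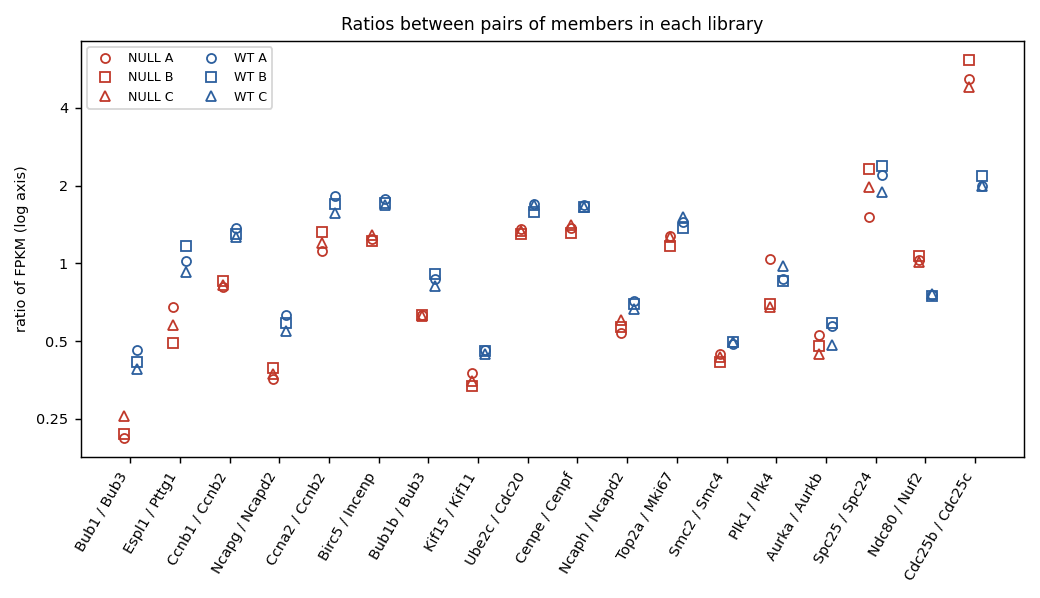
Ratio of FPKM between 18 pairs of members in each library on a log axis, NULL in red to the left of WT in blue, sorted by the difference in log2 ratio. In NULL the ratio of Bub1 to Bub3 lies at 0.210 to 0.257, against 0.390 to 0.460 in WT, and that of Cdc25b to Cdc25c at 4.82 to 6.15, against 2.0 to 2.18 in WT.

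The size of the fall depended on how the libraries were scaled, while its direction in the 49 members did not. The median log2 change of all genes was -0.13 for FPKM as deposited, 0.0098 with median-of-ratios factors, -0.030 after quantile normalization, 0.11 with an equal total per library and 0.20 with an equal total that leaves out small RNA genes. The members' median log2 change was -0.78, -0.65, -0.67 and -0.58 in these cases, and 49 members kept negative values in each. The number called lower was 49, 44, 28 and 44, while 32.7%, 33.0%, 10.1% and 20.6% of all genes were called lower. In either direction 64.4%, 61.5%, 30.5% and 65.8% of all genes were called, and with an equal total 20.4% were called higher. Small RNA genes, which enter the equal total, made up 6.07% (WT A) to 31.4% (WT C) of the summed FPKM. The 28 members called lower under every scaling were also called lower without any single library. They include Ccna2, Ccnb1, Cdk1, Plk1, Birc5, Bub1, Mad2l1, Ube2c, Nuf2, Kif11, Kif15, Tpx2, Ncapg and Top2a. Ccnb2, Bub3, Kif18b and Kif22 lost their calls under 3 of the 4 rescalings, and Foxm1 and Ncapd2 under 2. Cdc25b had a log2 change of 0.40, 0.56 and 0.62 with median-of-ratios factors, quantile normalization and an equal total without small RNA genes (limma adjusted p of 0.00119, 0.000269 and 0.000217). With an equal total its log2 change was 0.52, and the call was lost (limma adjusted p = 0.13).

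Other genes of mitosis were mostly lower too, with medians closer to 0 than that of the members. The share of all genes called lower, beside which the counts stand, was 42.0%, and 23.3% were called higher. Of 33 further kinetochore and centromere genes, 31 fell and none rose (median -0.75), led by Cenpw and the RZZ subunit Zwilch. Zwilch averaged 7.97 ± 1.38 FPKM in NULL and 19.5 ± 0.719 FPKM in WT (SD, n = 3 each) and Cenpw 2.93 ± 0.852 FPKM in NULL and 8.28 ± 0.485 FPKM in WT. Of 46 further kinesin, spindle and mitotic entry genes, 40 fell and 2 rose (median -0.73), with Kif20b and the CDK subunit Cks2 lowest. Cks2 averaged 69.7 ± 9.35 FPKM in NULL and 154 ± 1.83 FPKM in WT and Kif20b 13.3 ± 1.71 FPKM in NULL and 30.4 ± 1.36 FPKM in WT, while Numa1, which anchors spindle poles, rose with 32.1 ± 2.42 FPKM in NULL and 23.0 ± 2.19 FPKM in WT, as did the transport kinesin subunit Kif3b. Of 15 APC/C genes including its activator Fzr1, 12 fell and 1 rose (median -0.47), and Anapc15 led with 16.8 ± 1.79 FPKM in NULL and 40.9 ± 2.65 FPKM in WT, while Anapc16 rose with 23.6 ± 1.55 FPKM in NULL and 19.3 ± 1.80 FPKM in WT. The Anapc16 log2 change lost its call without NULL A, NULL C or WT A (limma adjusted p of 0.0699, 0.0520 and 0.0766) and with an equal total (0.101). Of 14 cohesin and condensin II genes, 12 fell and 2 rose (median -0.50). Esco2, the acetyltransferase that makes cohesion stable, averaged 20.7 ± 4.59 FPKM in NULL and 48.2 ± 2.16 FPKM in WT, and the cohesin loader genes Nipbl and Mau2 rose, with 23.5 ± 1.74 FPKM in NULL and 17.7 ± 2.65 FPKM in WT for Nipbl and 21.7 ± 0.823 FPKM in NULL and 15.9 ± 0.440 FPKM in WT for Mau2. The Nipbl log2 change lost its call without NULL B or NULL C (limma adjusted p of 0.0570 and 0.0530). Under the 4 rescalings the number called lower ranged from 13 to 28 in the kinetochore list, 13 to 37 in the spindle list, 1 to 9 in the APC/C list and 1 to 9 in the cohesin list, against 10.1% to 33.0% of all genes. The lowest count of each came with an equal total, where 1 of 15 APC/C genes and 1 of 14 cohesin and condensin II genes were called lower and 10.1% of all genes were.

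Components of the DREAM and MuvB complexes, which repress or activate these promoters, were called at shares near those of all genes. Of 11, 6 fell and 2 rose (median -0.36), where 42.0% of all genes tested were called lower and 23.3% higher. The E2F partner Tfdp1 averaged 86.7 ± 9.74 FPKM in NULL and 155 ± 9.49 FPKM in WT, and Lin54, the subunit that contacts the CHR, 4.39 ± 0.181 FPKM in NULL and 8.12 ± 0.988 FPKM in WT (SD, n = 3 each). Tfdp2, the other DP protein, rose with 10.8 ± 0.703 FPKM in NULL and 6.61 ± 0.606 FPKM in WT. Lin37 rose with 11.3 ± 1.42 FPKM in NULL and 9.03 ± 0.400 FPKM in WT. Its call was lost with an equal total (limma adjusted p = 0.0734). It was also lost in at least 1 fit that left out a library (largest limma adjusted p = 0.0583). Under the 4 rescalings 0 to 5 of the 11 were called lower and 1 to 4 higher, against 10.1% to 33.0% and 20.4% to 45.1% of all genes.

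Genes of DNA replication, which are periodic too, were also lower. Of 50 replication genes, 49 were called lower and none higher, where 42.0% of all genes were called lower. The median log2 change was -0.97 for replication genes, beside -0.93 for the mitotic members. With an equal total 31 were called lower, against 10.1% of all genes, and under each of the other 3 rescalings 49 were, with 1 called higher when small RNA genes were left out of the total. Pole2, a subunit of DNA polymerase epsilon, averaged 9.13 ± 1.35 FPKM in NULL and 27.5 ± 2.50 FPKM in WT and Rrm1, the large subunit of ribonucleotide reductase, 46.2 ± 7.40 FPKM in NULL and 129 ± 2.25 FPKM in WT. Their log2 changes of -1.50 and -1.47 are below that of Bub1. The medians of the replication genes relative to WT were -0.83, -1.20 and -0.89 in NULL A, B and C, so NULL B was lowest for them too. The difference between the mitotic and the replication list was not tested.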

How the data were processed

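Per the labels' protocols, polyadenylated RNA went into stranded, paired-end libraries. The authors deposited FPKM per gene symbol, and the submitters' processing notes name Bowtie, Cufflinks, mm10 and GRCm38 with no versions or roles. For annotation, filters, scaling and use of strand nothing is stated. The table held 23848 rows and differed from the library tables in 0 values. A symbol on several rows (256 symbols) was represented by its most highly expressed row. FPKM are not counts, so limma 3.58.1 in R 4.3.3 was used on log2(FPKM + 1), with a mean-variance trend and Benjamini-Hochberg adjustment of two-sided p-values over the 9916 genes averaging 1 FPKM or more. The step was tested on simulated data with independent noise for each gene and few changed genes. Those data did not hold shifts of many genes as found here, so the test does not cover them. Depth is an approximation from low values and GENCODE vM21 lengths and supports no counting interval.

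The members and lists were chosen with earlier results of these data known. Per-library values are given for members with the highest mean and the most and least negative change of each role, and for those without a call or losing it under a rescaling or a left-out library. Of other lists, up to 2 called genes in each direction with the largest change are named. Alternatives were 2 pseudocounts, 3 filters, 4 rescalings, robust moderation, a replicate block, array weights, a flat variance prior, 2 thresholds and leaving out each library. Pairing by replicate letter was not assumed.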

Additional observations from a re-analysis of the deposited data

How the results depend on the processing

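On the deposited scale 49 members were called lower, their median log2 change was -0.93 and the number of all genes called was 6479. With an equal total per library 28 members were called lower, with a members median log2 change of -0.67 and 3026 genes called. The median was -0.65 after quantile normalization and -0.58 with an equal total that leaves out small RNA genes, with 44 members called lower in each. The number of genes called was 3623 when those averaging under 10 FPKM were left out, which removes genes from the test, and 3676 when an absolute log2 change of 0.5 was also required. Members called lower numbered 46 among those averaging 10 FPKM or more, 48 at either stricter threshold and 49 under both other pseudocounts, the other filters, median-of-ratios rescaling, robust moderation, array weights and the fit without a variance trend. The Pttg1 log2 change was 0.14, 0.081, 0.25 and 0.34 under median-of-ratios, quantile, equal-total and equal-total rescaling that leaves out small RNA genes, 0.095 with array weights, and -0.086 to 0.10 when each library was left out. Leaving out each library gave 5843 to 6450 genes called, 49 members lower in each case and a members' median of -1.01 to -0.83. With the replicate letter as a block, 5844 genes and 49 members lower were called, and the Cdc25b log2 change was not called (limma adjusted p = 0.0634). Same-lettered NULL and WT libraries had correlations of deviations of 0.073, 0.36 and 0.13, and each library correlated best with its own letter, a hint from the data that is not in the labels. For the other changes the cause was not tested. Depth is known only approximately, and 3 libraries a group limit single-gene exact tests.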

Other observations

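Tubulin genes, which encode the subunits of spindle microtubules, were called in both directions. Of 9 alpha and beta tubulins tested, 7 were called lower and 2 higher in NULL, where 42.0% of all genes were called lower and 23.3% higher. Tuba1b, the most abundant of those named, measured 399, 241 and 347 FPKM in NULL A, B and C, against 739, 759 and 820.2 FPKM for WT A, B and C (log2 change -1.26). Tubb3, a class often used as a neuronal marker, measured 11.9, 5.30 and 9.28 FPKM in NULL A, B and C, against 27.9, 31.01 and 38.9 FPKM for WT A, B and C (log2 change -1.82). NULL B was the lowest library for both. Tubb2b measured 5.94, 5.85 and 7.10 FPKM in NULL A, B and C, against 2.13, 2.50 and 1.66 FPKM for WT A, B and C (log2 change 1.24), and Tubb2a 2.20, 1.69 and 2.04 FPKM in NULL A, B and C, against 0.849, 1.29 and 1.41 FPKM for WT A, B and C (log2 change 0.45). Tubulin genes have close paralogs, so the assignment of their reads is uncertain. Under the 4 rescalings 5 to 7 were called lower and 2 higher.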
